A study of Cunninghamia lanceolata with 2 samples.

Results

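Ubiquitin is a small protein that cells attach to other proteins, most often to mark them for destruction by the proteasome. An activating enzyme (E1) charges ubiquitin, a conjugating enzyme (E2) takes it over, and a ligase (E3) brings the charged E2 to the substrate and so sets which protein is tagged. In plants the E3 ligases form large families that act in hormone, light and nutrient responses, while E1 and E2 enzymes serve many ligases in common. The genes described here are those that the deposited annotation places on the KEGG map of ubiquitin mediated proteolysis. Genes named as conjugating enzyme E2 O and genes also placed on the KEGG maps of circadian rhythm in plants or of nucleotide excision repair were left out, so the list holds no cullin 4, no RING-box protein 1 and no E2 O gene. This left 166 of the 32731 assembled genes in the table, out of 176 on the map.

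The study sequenced root RNA of Chinese fir (Cunninghamia lanceolata), a conifer grown for timber. Plantlets were kept for 1 month in diluted Hoagland nutrient solution and then for 4 months either on distilled water with less than 0.01 mM phosphorus (LP) or with 1 mM phosphorus (CK). Each condition had 1 library, so there was no replicate spread and no test, and every difference below is a difference between these 2 libraries. Whether a library held the roots of 1 plant or of several was not stated, and the labels' account of library preparation names fat tissue and leaves unclear which poly(A) fraction was sequenced. In bulk roots, fewer cells of a type and less RNA per cell cannot be told apart. The LP library held 48502899 estimated reads and the CK library 17848911, a ratio of 2.72, and the middle member had 1078 reads in LP and 511 in CK. The 30 genes picked as root markers together reached 1510 RPKM in LP and 1643 in CK, with 0 of them at 0 reads in LP and 1 in CK. The 67 green shoot genes, of photosynthesis, reached 1007 in LP and 1517 in CK, with 0 at 0 reads in LP and 2 in CK; the part of tissue make-up in the results was not tested.

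Levels are given as RPKM, read counts scaled to gene length in kilobases and to library size, as the authors deposited them. A log2 ratio is log2((LP + 1)/(CK + 1)) on RPKM, where the added 1 RPKM understates the change of weakly expressed genes. A gene was kept when its mean of both libraries was at least 1 RPKM, and it was counted as higher or lower in LP when the log2 ratio was at least 1 or at most -1, that is 2-fold. Folds between single genes are plain ratios of RPKM with a 95% Clopper-Pearson interval, which covers counting error only. The genes come from assembled transcripts, so 1 locus can be split into fragments and near-identical copies can share reads, and values of single genes are uncertain in that respect. Product names are those of the deposited annotation, mostly of animal or yeast proteins, and were not checked against sequence. Of the 166 genes 146 carry GO annotation terms, and 103 of these have a term on ubiquitin, its relatives or a ligase complex.

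Of the 166 genes 163 were kept. The 3 others had no CK read and were at 1.22 RPKM (E2 R comp91235_c0), 0.19 RPKM (E2 N comp116493_c0) and 0.38 RPKM (NEDD4-named comp181859_c0) in LP. Summed over these genes, RPKM was 8796 in LP and 7900.5 in CK, a ratio of 1.11. Scaled to library size and not to length (RPM), the sum was 11378 in LP, with an exact Poisson 95% interval of 11348 to 11408, and 12113 in CK, with an interval of 12062 to 12164, a ratio of 0.94. The direction of the sum thus turned with the unit. Over all kept genes in the table the ratio of the sums was 1.07 in RPKM and 1.00 in RPM. In LP 8 genes were at least 2-fold higher, or 4.91% of those kept, beside 8.68% of all 30843 kept genes in the table. Another 10 genes were at least 2-fold lower, or 6.13%, beside 16.2% of all kept genes. Genes with a product name, which like the members are longer and more abundant, were called higher in 9.28% and lower in 10.1% of cases. The members' median log2 ratio was -0.10, with quartiles of -0.43 and 0.23. Over all kept genes the median was -0.16, with quartiles of -0.68 and 0.27. Below 0 lay 101 members and above it 62, but with TMM factors from the counts applied to RPKM, 99 lay above and 64 below. Of all 30843 kept genes 18423 lay below 0 and 12396 above it, and with these factors 16282 lay above and 14561 below. These factors raise LP over CK by 0.24 on the log2 scale before the 1 RPKM is added, so weak genes move less. The share of these genes 2-fold apart was thus below that of all genes in both directions, and the differences described next are between enzyme classes.

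**Figure D1:**
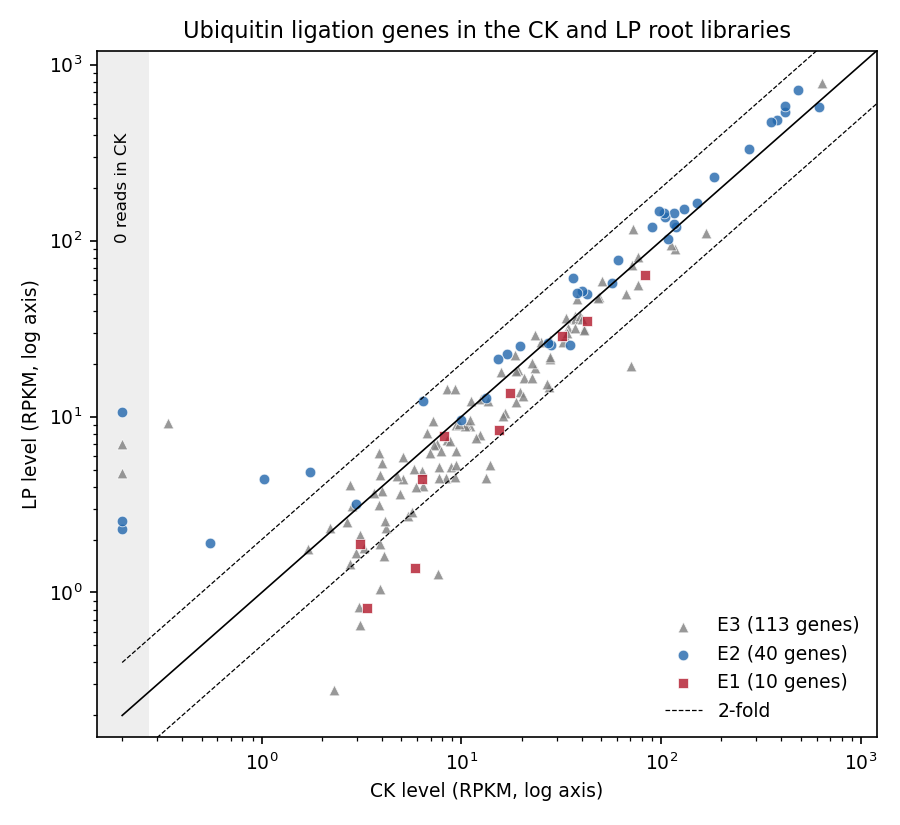
Level of each kept gene in the CK library (x axis, RPKM, log axis) against the LP library (y axis, RPKM, log axis); blue circles are E2 genes, red squares E1 genes, grey triangles E3 genes, and the shaded strip holds genes with 0 CK reads. Most E2 circles lie just above the line of equal levels, all 10 E1 squares lie below it, and 145 of 163 genes lie within 2-fold on the log2(RPKM + 1) scale.

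The E1, E2 and E3 classes differed in where their genes lay. All 10 E1 genes were lower in LP, with a median log2 ratio of -0.40. Of 40 kept E2 genes 33 were higher in LP, with a median of 0.35. Among them comp20711_c0, comp115027_c0 and comp143210_c0 had no CK read and passed the filter through LP alone, so they had to be higher. Of the 33 E2 genes with at least 100 reads in each library 26 were higher, with a median of 0.34. Of 113 kept E3 genes 84 were lower in LP, with a median of -0.21, close to the -0.16 of all genes. Beside these class counts, 18423 of all 30843 kept genes were lower in LP and 12396 higher. TMM scaling moves all genes the same way, so it could hardly alter the order E2 above E3 above E1. Under it the medians were 0.59, 0.00 and -0.18. Signs did change, since 58 of 113 E3 genes and 2 of 10 E1 genes then lay above 0. So did 39 of 40 E2 genes, or 32 of the 33 with at least 100 reads in each library. Of all 30843 kept genes 16282 lay above 0 under TMM scaling. The E2 genes held 66.3% of the members' summed RPKM in LP and 59.7% in CK, the E1 genes 1.88% and 2.75%, and the E3 genes 31.8% and 37.5%.

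The ratios varied with gene length across the whole table, but not in 1 direction. The Spearman rank correlation of length with log2 ratio was 0.06 over all kept genes and -0.39 over the kept members. All kept genes of up to 500 bases had a median log2 ratio of -0.32, those of 501 to 1000 bases 0.00, those of 1001 to 2000 bases 0.02, those of 2001 to 4000 bases -0.29, and longer genes -0.72. The members followed the same course above 500 bases, with medians of 0.06, 0.12, -0.32 and -0.68, and lay at -0.07 below it. The classes differ in length: the median was 1022 bases for E2, 1698 for E1, 1906 for E3 and 2789 for the HECT ligases. The ratio of each gene was therefore also taken less the median of all kept genes of like abundance and length. On that scale the E2 median was 0.16, with 30 of 40 genes above 0. Of the 33 E2 genes with at least 100 reads in each library 23 lay above 0. The E1 median was -0.15, with all 10 genes below 0, and the E3 median was -0.02, with 53 of 113 above 0. The spread between classes was thus smaller among genes of like length and level, and the part of length in the remainder was not tested further. The longest genes were not fully matched: all kept genes beyond 4000 bases still had a median of -0.16 on that scale, with 420 of 611 below 0.

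**Figure D2:**
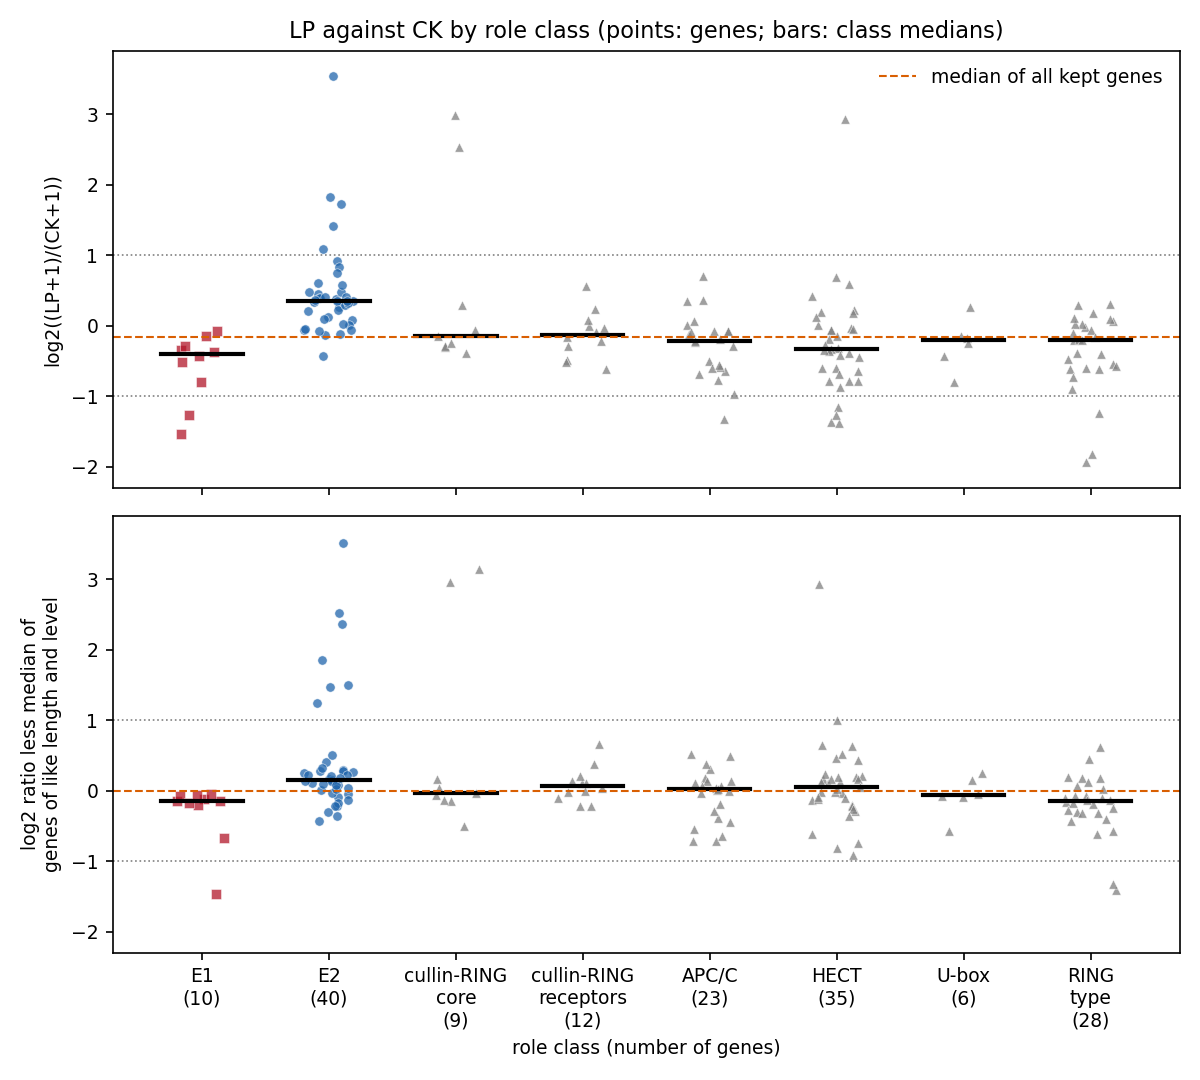
Log2 ratio of LP over CK for each kept gene (points) and the class median (black bars), by role class with the number of genes; the lower panel subtracts the median of all kept genes of like abundance and length. E2 genes have the highest median in both panels, 0.35 and 0.16, and E1 genes have the lowest in the upper panel at -0.40, while most E3 classes sit near the dashed median of all genes.

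**Figure D3:**
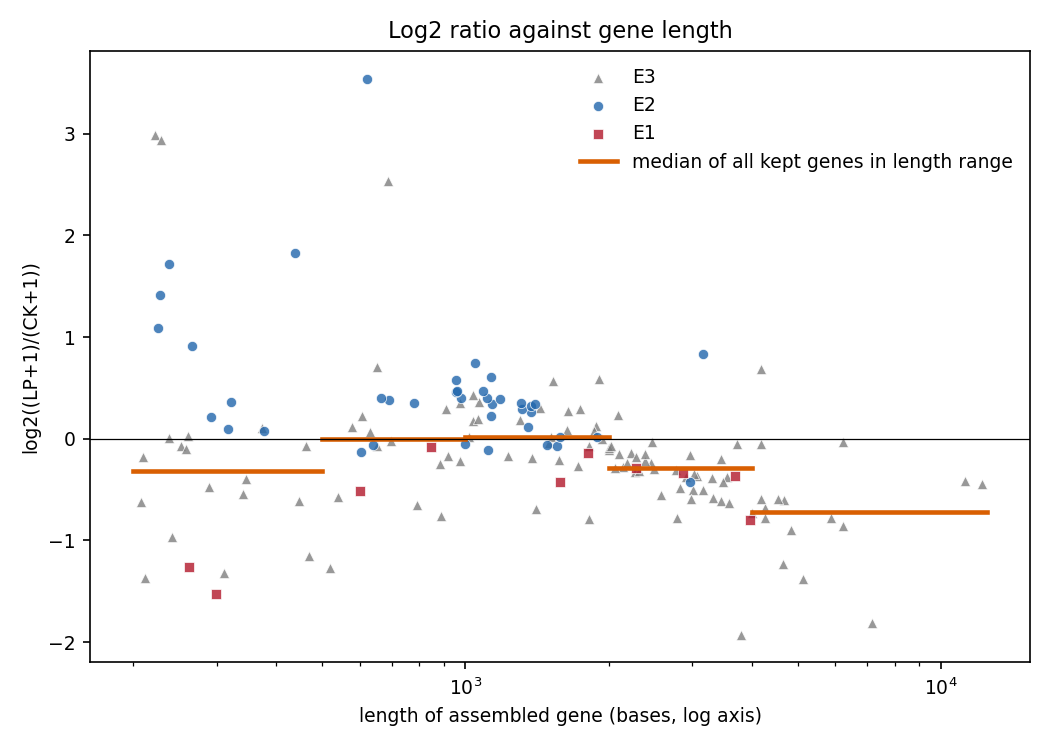
Log2 ratio of each kept gene against the length of the assembled gene (bases, log axis), with orange lines for the median of all kept genes in 5 length ranges. The medians of all genes run from 0.02 at 1001 to 2000 bases to -0.72 beyond 4000 bases, and the 17 members beyond 4000 bases have a median of -0.68.

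The E1 enzymes stand at the head of the pathway. Together they reached 166 RPKM in LP and 217 in CK, a ratio of 0.76, beside 1.07 over all kept genes. In RPM this was 461 in LP, with an interval of 455 to 467, and 591 in CK, with an interval of 580 to 602. Of the 7 genes named as the ubiquitin E1, the most abundant was comp9295_c0, at 63.97 RPKM in LP and 82.94 in CK, a ratio of 0.77 with an interval of 0.75 to 0.80. The next, comp24601_c0, was at 8.42 RPKM in LP and 15.39 in CK, a ratio of 0.55 with an interval of 0.51 to 0.59. These are long assemblies of 3697 and 3975 bases, and less genes of like length and level their log2 ratios were -0.05 and -0.14, so most of their difference was shared with such genes. The E1 genes called lower were comp107038_c0, at 1.38 RPKM in LP and 5.87 in CK, and comp116168_c0, at 0.82 and 3.37. They are fragments of 299 and 262 bases with 16 and 8 reads in LP and 25 and 12 in CK.

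The other 3 E1 genes serve the ubiquitin-like proteins, and none was 2-fold apart. Ubiquitin-activating enzyme E1 C, the catalytic subunit of the E1 for NEDD8, which is attached to cullins, was at 34.78 RPKM in LP and 42.56 in CK. The subunits of the SUMO E1 were at 28.62 RPKM in LP and 31.7 in CK (ubiquitin-like 1-activating enzyme E1 A) and at 13.63 and 17.47 (E1 B). All 3 were lower in LP, by 1.11-fold to 1.28-fold.

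The E2 enzymes had the highest summed level per length. Together they reached 5833 RPKM in LP and 4717 in CK, a ratio of 1.24, beside 1.07 over all kept genes. In RPM this was 5802 in LP, with an interval of 5781 to 5823, and 4742 in CK, with an interval of 4711 to 4775. The E3 genes, which are longer, had 5115 RPM in LP and 6779 in CK, so by reads E2 genes held more than E3 genes in LP and fewer in CK. In single E2 genes the counting interval of the ratio lay above 1 for 24 and below 1 for 3. Over all 163 kept members it lay above 1 for 40 and below 1 for 72. The count over all genes was not taken, so these counts have no background share beside them. Of the 15 E2 product names with a kept gene 13 had a higher sum in LP, so the difference was spread over E2 types and did not rest on the most abundant gene, without which the ratio was 1.21. Among the 10 most abundant members 9 were E2 genes and 9 were higher in LP, but none reached 2-fold.

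**Figure D4:**
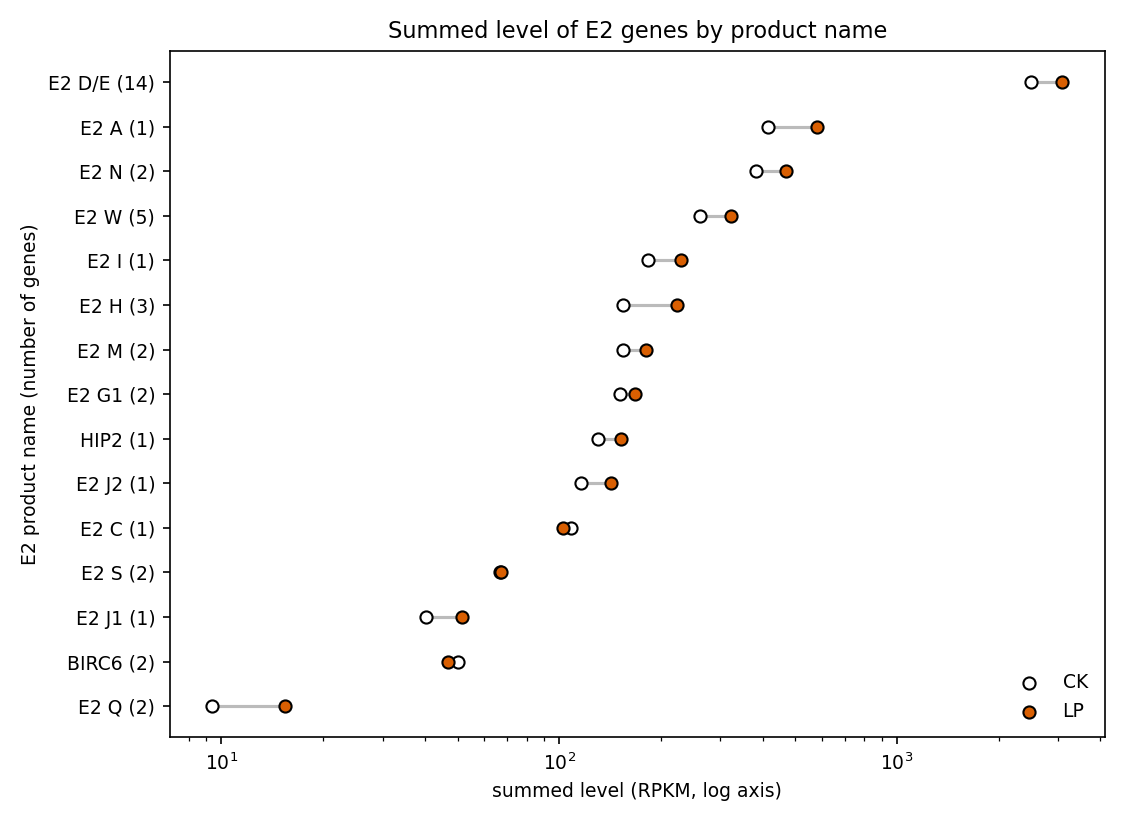
Summed level (RPKM, log axis) of the kept genes of each E2 product name in CK (white) and LP (orange), with the number of genes in brackets. The LP point lies to the right for 13 of 15 names, from E2 D/E at 3085 against 2493 RPKM to E2 Q at 15.4 against 9.39, and to the left for E2 C and for BIRC6.

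The E2 D/E type, which works with many RING and U-box ligases, was the most abundant, with 14 genes that summed to 3085 RPKM in LP and 2493 in CK. Its top gene comp8809_c0 was at 718.79 RPKM in LP and 482.28 in CK, 1.49-fold higher with an interval of 1.45 to 1.53. The second, comp5681_c0, was at 571.59 RPKM in LP and 618.02 in CK, a ratio of 0.925 with an interval of 0.905 to 0.945, so near relatives lay on both sides of equality. Among the 7 E2 D/E genes that averaged 50 RPKM or more, 6 were higher in LP, with a median log2 ratio of 0.36. Several weak genes of this type stood further apart and are described with the other 2-fold genes.

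The main genes of the remaining E2 types were mostly higher in LP and within 2-fold. E2 A, the RAD6 type known for ubiquitination of histone H2B, was a single gene, comp5650_c0, at 578.6 RPKM in LP and 416.27 in CK, 1.39-fold higher with an interval of 1.36 to 1.42. E2 H was at 148.0 RPKM in LP and 97.05 in CK for its main gene comp16729_c0, and its 3 genes summed to 223 RPKM in LP and 155 in CK. E2 N, which builds chains linked through lysine 63 together with a partner protein, summed to 469 RPKM in LP and 381 in CK. E2 W summed to 322 RPKM in LP and 262 in CK over 5 genes. The highest ratio among E2 genes with at least 100 reads in each library was that of comp25281_c0, named E2 Q, at 12.25 RPKM in LP and 6.42 in CK, 1.91-fold higher with an interval of 1.71 to 2.14.

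E2 enzymes with a specific partner did not all lie on the same side. E2 I, the E2 of SUMO, was at 229.9 RPKM in LP and 183.31 in CK, a ratio of 1.25. The NEDD8 enzyme E2 M had 2 genes: comp28948_c0 was at 61.42 RPKM in LP and 36.32 in CK, 1.69-fold higher, and comp20380_c0 was at 119.32 and 118.12. The ER-bound E2 enzymes J1 and J2, which serve the degradation of misfolded proteins of the endoplasmic reticulum, were at 51.51 and 142.71 RPKM in LP and at 40.23 and 116.06 in CK. E2 C and E2 S, the partners of the anaphase-promoting complex in animal cells, were near equality: E2 C was at 102.63 RPKM in LP and 108.05 in CK, and the 2 E2 S genes summed to 67.0 in LP and 66.6 in CK. The very large BIRC6 protein, an E2 and E3 in 1 chain in animals, was represented by comp25498_c0, at 25.65 RPKM in LP and 34.82 in CK, and by comp15775_c0, at 21.24 and 15.22.

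Among the E3 ligases the cullin-RING type is assembled from a cullin scaffold, adaptors and exchangeable substrate receptors. The 9 genes of scaffold and adaptors summed to 1022 RPKM in LP and 918 in CK, of which 1 adaptor gene held most. This gene, comp8933_c0, named SKP1, the link between cullin 1 and F-box proteins, was at 785.34 RPKM in LP and 641.63 in CK, a ratio of 1.22 with an interval of 1.20 to 1.25. The 4 genes named cullin 3, the scaffold for BTB-domain receptors, were all lower in LP and summed to 124 RPKM in LP and 158 in CK. The largest of them, comp26506_c0, was at 89.59 and 117.01, and its log2 ratio less like genes was -0.07. Elongin C (transcription elongation factor B, polypeptide 1) was at 94.53 RPKM in LP and 112.08 in CK. No gene of the list is named cullin 1, so the scaffold of the SKP1 ligases is not described here.

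The 12 substrate receptors had a median log2 ratio of -0.13, and none was 2-fold apart. All 12 have GO terms, but only 3 have a term on ubiquitin, its relatives or a ligase complex. They count as receptors by product name or KEGG number only. Their sum was 234 RPKM in LP and 255 in CK. The F-box protein with WD-40 repeats comp23426_c0 was at 47.84 RPKM in LP and 48.96 in CK, and comp23958_c0 was at 16.59 and 20.47. These carry the annotation term cellular response to phosphate starvation, as do 20 genes in the whole table, and their ratios were 0.98 with an interval of 0.92 to 1.04 and 0.81 with an interval of 0.74 to 0.89. The SKP2-named gene was at 37.04 RPKM in LP and 37.12 in CK. De-etiolated-1, a repressor of light responses in Arabidopsis that acts with cullin 4, was at 8.09 RPKM in LP and 6.72 in CK.

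The anaphase-promoting complex (APC/C) drives the exit from mitosis by tagging cyclins and securin. Its 11 subunit genes had a median log2 ratio of -0.23, and 0.07 less genes of like length and level, so they lay where such genes lay. Of the catalytic core subunits, subunit 11, the RING subunit comp15160_c0, was at 14.42 RPKM in LP and 8.47 in CK, 1.70-fold higher with an interval of 1.34 to 2.18, while subunit 2, the cullin-like comp21981_c0, was at 7.89 and 12.34. Less genes of like length and level their log2 ratios were 0.52 and 0.07, on the same side of 0. The 12 genes named as the activators CDC20 and CDC20-like 1 (CDH1) summed to 181 RPKM in LP and 252 in CK. Most of that sum was comp26631_c0, at 110.42 RPKM in LP and 167.68 in CK. This gene is annotated with terms of jasmonic acid signalling and transcription repression and with none of the APC/C, so its product name is doubtful. Of the 12 activator genes 11 have GO terms, and 1 of these has a term on ubiquitin, its relatives or a ligase complex. The others are activators by product name only.

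HECT ligases take the ubiquitin onto themselves before passing it on, and include the longest proteins of the pathway. The 35 kept genes summed to 655 RPKM in LP and 727 in CK. By at least 2-fold 1 gene, or 2.86%, was higher and 4, or 11.4%, were lower, both below the 8.68% and 16.2% of all genes. Among the 27 with at least 100 reads per library 0 were higher and 1 lower. Those not named HERC, 15 genes with a median length of 4258 bases, had a median log2 ratio of -0.59, but -0.03 less genes of like length and level. The 20 genes named HERC, whose animal namesakes carry RCC1-like repeats beside the HECT domain, had medians of -0.12 and 0.16 on these scales. They held 314 of the 655 RPKM in LP, and they count as HECT ligases by name only, with no check of the domain. GO terms were given for 10 of them, 8 with a term on ubiquitin, its relatives or a ligase complex. The members of the first set thus lay low together with other long genes.

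The named HECT genes show how far the ratio depended on the unit. HUWE1, a ligase of many nuclear proteins, had 2 genes of 12214 and 11232 bases: comp26309_c0 at 56.3 RPKM in LP and 76.74 in CK, and comp25586_c0 at 49.77 and 66.9. Their RPKM ratios were 0.73 and 0.74, but their read ratios, from estimated reads scaled to library size and not to length, were 0.51 and 0.45. The 3 TRIP12 genes were at 14.7, 15.22 and 47.4 RPKM in LP and at 27.54, 26.79 and 48.33 in CK. For comp20081_c0, the last of them, the RPKM ratio was 0.98 and the read ratio 0.52. In the whole list 10 genes had ratios by RPKM and by reads that differed by more than 1.25 times, and each of the 10 had more than 1 assembled transcript. In HERC2-named comp24420_c0, with 18 transcripts, both ratios were above 1: it was at 116.68 RPKM in LP and 71.93 in CK, a ratio of 1.62, and the read ratio was 2.07.

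The U-box ligases, which bind the E2 with a RING-like fold without zinc, showed no gene 2-fold apart. STUB1 (CHIP), which tags clients of chaperones, had comp18785_c0 at 22.48 RPKM in LP and 18.46 in CK, and comp14456_c0 at 2.85 and 5.67. For the latter the read ratio was 0.76 beside an RPKM ratio of 0.50. Pre-mRNA-processing factor 19, a spliceosome component, summed to 41.1 RPKM in LP and 45.8 in CK over 2 genes.

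The single-chain RING ligases numbered 28, with a median log2 ratio of -0.20 and of -0.15 less like genes. The 9 genes named SIAH1, a family that in plants includes the SINAT proteins, summed to 228 RPKM in LP and 227 in CK and were all within 2-fold. The 10 genes named RFWD2, the animal name of COP1, which degrades light-response factors in darkness, summed to 68.7 RPKM in LP and 82.3 in CK. All 10 have GO terms, but only 2 have a term on ubiquitin, its relatives or a ligase complex, so the name is uncertain for most. The lowest RFWD2 gene was comp25678_c0, at 4.53 RPKM in LP and 9.28 in CK. Its plain ratio was just beyond 2-fold, but its log2 ratio with the added 1 RPKM was -0.89, so it was not counted as lower. The ligase MGRN1 was at 80.69 RPKM in LP and 76.65 in CK, and synoviolin, which acts in the degradation of proteins of the endoplasmic reticulum, was at 31.23 and 40.92.

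In the RING class 3 of the 6 genes named ring finger and CHY zinc finger domain-containing protein 1 were 2-fold lower with 233 reads or more per library. Their namesake in animals (Pirh2) tags p53, and the CHY and RING fingers also occur in the Arabidopsis iron regulator BRUTUS. The gene comp25327_c0 was at 19.39 RPKM in LP and 70.54 in CK, 3.64-fold lower with an interval of 3.53 to 3.75, from 7099 and 9463 reads. The gene comp26779_c0 was at 5.33 and 13.87, 2.60-fold lower with an interval of 2.40 to 2.82. The gene comp15787_c0 was at 1.27 and 7.63, 6.01-fold lower with an interval of 5.14 to 7.04. These are assemblies of 7166, 4661 and 3803 bases, and less genes of like length and level their log2 ratios were -1.33, -0.58 and -1.41, so comp26779_c0 was no longer 2-fold apart.

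The other 3 CHY genes were close to equality. They were comp13208_c0, at 31.99 RPKM in LP and 37.03 in CK, comp18854_c0, at 72.62 and 71.5, and comp37807_c0, at 9.05 and 9.77. The 6 genes summed to 140 RPKM in LP and 210 in CK. Of the 6 genes 5 lay below 0, the 3 long assemblies by at least 2-fold and the shorter ones by less, and all 6 lay below genes of like length and level. The group was singled out after its values were seen. Only these 3 and HERC2-named comp25530_c0 were 2-fold apart among the 121 members with at least 100 reads in each library, which is 0 higher and 4 lower. Over all genes at that depth 3.95% were higher and 7.1% lower. The gene comp25530_c0 was at 4.46 RPKM in LP and 13.25 in CK, but its read ratio was 0.55, which is within 2-fold.

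The other 14 of the 18 genes 2-fold apart had fewer than 100 reads in a library, among them all 8 that were higher. Beside the E1 fragments, the weak lower genes were HERC2-named comp117616_c0, at 0.83 RPKM in LP and 3.08 in CK, HERC1-named comp220827_c0, at 0.28 and 2.30, NEDD4-named comp7268_c0, at 1.04 and 3.92, and APC/C subunit 1 comp136071_c0, at 0.65 and 3.12. None of these 4 had more than 33 reads in CK. Of the 18 genes 11 were assemblies of 500 bases or less. Among the 8 higher, 5 had 0 reads in CK and passed the filter on level through LP alone, so they had to differ. The most abundant was E2 D/E comp20711_c0, at 10.66 RPKM in LP from 301 reads and 0 in CK. An equal level would have given 111 reads in CK, and with a floor of 3 CK reads it was at least 36.9-fold higher. Whether reads of genes seen in LP alone come from the plant was not tested, and a search for fungal product names found 0 genes. The SKP1-named comp47612_c0 was at 4.78 RPKM in LP from 151 reads and at least 18.5-fold higher, and comp106564_c0, also named SKP1, was at 6.94 RPKM from 53 reads and at least 6.50-fold higher. E2 G1 comp115027_c0, at 2.55 RPKM in LP, was at least 5.89-fold higher, and E2 D/E comp143210_c0, at 2.30 RPKM, at least 2.39-fold.

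The abundant relatives of these genes differed far less. The SKP1 gene comp8933_c0 was 1.22-fold higher, the top E2 D/E gene comp8809_c0 was 1.49-fold higher, and the main E2 G1 gene comp20802_c0 was at 164.59 RPKM in LP and 151.5 in CK. In the list 6 genes, or 3.61%, had at least 10 reads in LP and 0 in CK, beside 3.57% of the whole table, and no member had 0 reads in LP. The remaining higher genes were E2 D/E comp132074_c0, at 4.40 RPKM in LP and 1.03 in CK, E2 D/E comp111649_c0, at 4.84 and 1.74, and the NEDD4-named comp11377_c0, at 9.25 and 0.34. The last rests on 1 CK read, with a ratio of 27.2 and an interval of 4.73 to 1089, and its annotation terms are those of an ARF GTPase activator, so its name as a ligase is doubtful.

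**Figure D5:**
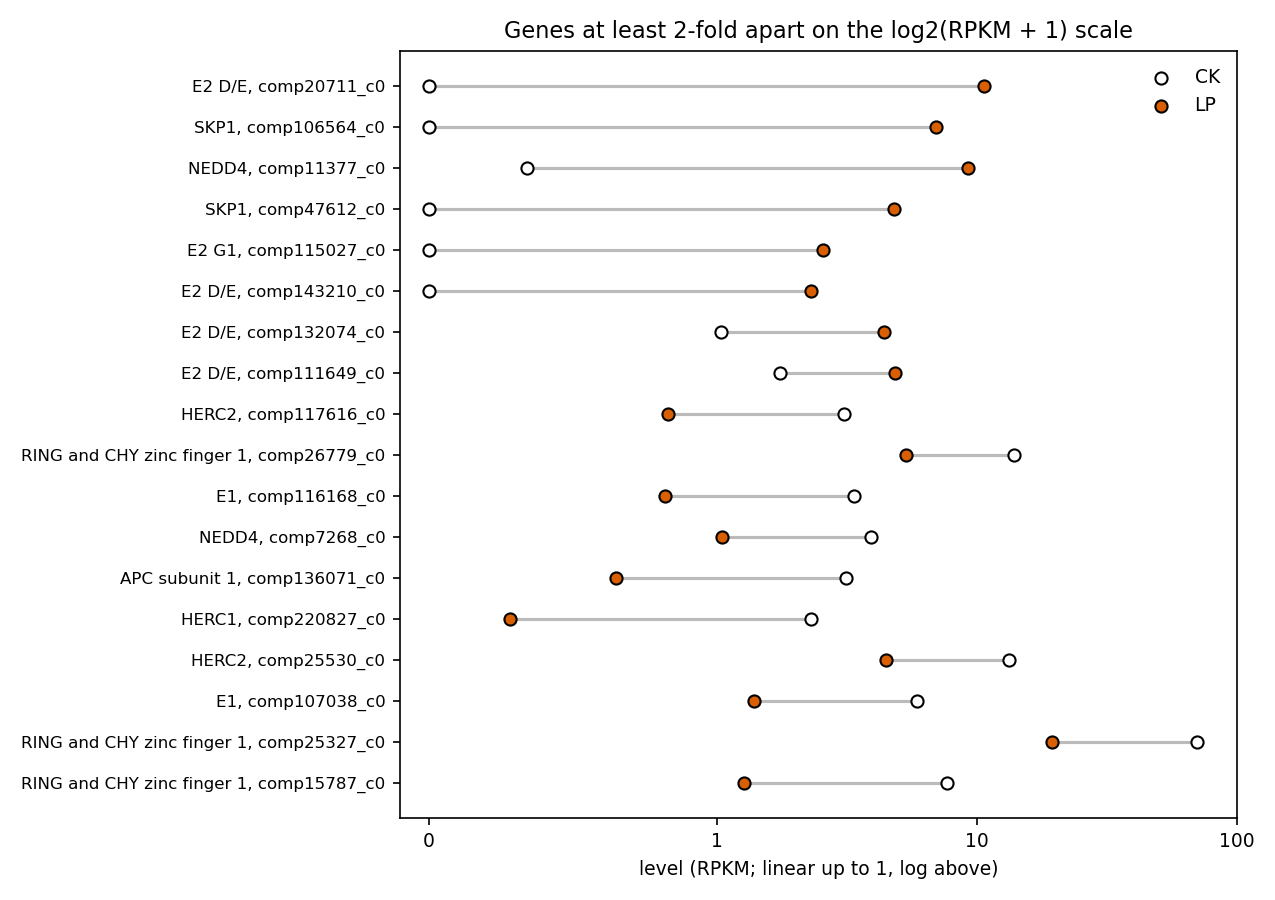
RPKM in CK (white) and LP (orange) of the 18 genes at least 2-fold apart, ordered by log2 ratio, on an axis linear to 1 and logarithmic above it. The 8 genes higher in LP lie at or below 1.74 RPKM in CK, and among the 10 lower genes comp25327_c0, at 70.54 RPKM in CK, is far above the rest.

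The authors' deposited table marks 8 of the members as significant. In the authors' deposited table these are E2 D/E comp20711_c0, SKP1 comp106564_c0 and comp47612_c0 and NEDD4 comp11377_c0 as higher, and the 3 CHY genes and HERC2 comp25530_c0 as lower. The FDR in the authors' deposited table is 0.03, 0.13, 0.28 and 0.08 for the former. For comp25327_c0, comp15787_c0, comp26779_c0 and comp25530_c0 the authors' deposited table gives an FDR of 0.0, 0.23, 0.28 and 0.23. With 1 library per condition such values compare the libraries, not the conditions, and the mark is set on genes with an FDR up to 0.28. Over all genes 5.27% are marked as higher and 5.17% as lower.

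Genes upstream and downstream of the ligation steps were set beside the members by the same rules. Ubiquitin itself and its relatives, 27 precursor genes, summed to 21853 RPKM in LP and 17726 in CK, with 5 higher, or 18.5% beside 8.68% of all genes, 0 lower, and a median log2 ratio of 0.37. Of those 5 higher genes 4 had at most 25.2 reads in CK, and a minimum of 10 reads per library left a count of 2, a minimum of 100 a count of 1. Less genes of like length and level that median was 0.17, close to the 0.16 of the E2 genes. The 55 kept genes of the proteasome, which degrades the tagged proteins, had 5 higher (9.09%) and 4 lower (7.27%), a median of 0.01 and sums of 3973 and 3835 RPKM. All 5 higher proteasome genes had 0 CK reads and passed the filter through LP alone. The 44 kept deubiquitinating enzymes, which remove ubiquitin, had 0 higher and 13 lower, or 29.5%, beside the 16.2% of all genes. With at least 100 reads per library 4 of 33 were lower, beside 7.1% of all genes, and with a pseudocount of 5 RPKM 5 of 44. Their median was -0.62, and -0.35 less like genes, and they summed to 823 RPKM in LP and 1107 in CK. Of these 44 genes 38 lay below 0, and 35 did so under TMM scaling. Over all 30843 kept genes 18423 lay below 0, and 14561 did so under TMM scaling.

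The deubiquitinating enzymes lowest in LP were mostly of the names ubiquitin carboxyl-terminal hydrolase 7, with 5 of 13 genes lower, and 16/45, with 4 of 7 lower. Except for the hydrolase 7 gene comp17816_c0, these lower genes had at most 96 reads in LP. At good depth comp17816_c0 was at 6.8 RPKM in LP and 19.97 in CK, 2.94-fold lower. The hydrolase 36/42 genes comp13471_c0, at 9.19 and 30.27, and comp26156_c0, at 3.24 and 8.15, were 3.29-fold and 2.52-fold lower. The 9/24 gene comp17975_c0 was at 8.81 and 21.6, 2.45-fold lower. Less genes of like length and level, the log2 ratios of comp17816_c0 and comp13471_c0 were -1.42 and -1.05. Those of comp26156_c0 and comp17975_c0 were -0.60 and -0.63, within the limit for being counted as lower. The COP9 signalosome, which takes NEDD8 off cullins, had 11 genes with 0 higher and 1 lower (9.09%), and a median of -0.05. Of all kept genes 8.68% were higher and 16.2% lower. The lower gene, comp5077_c0, is an assembly of 436 bases with 55 reads in LP and 56 in CK. Another 44 kept genes named as E3 ligases outside the KEGG map had 1 higher (2.27%) and 4 lower (9.09%) and a median of -0.09, both shares below those of all genes. These lists were read from product names, so fragments of 1 gene can count several times.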

How the data were processed

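Root RNA of 1 LP and 1 CK sample was sequenced as paired ends on an Illumina instrument, per the labels' protocols. The table lists assembled genes; per the file headers the authors deposited estimated counts and RPKM per library, gene length and effective length, their log2 fold change, and a p-value and FDR rounded to few decimals. The assembler, aligner, counter, strand setting and test are not stated there. Sequences of the genes were not used here.

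From the deposited RPKM, log2((LP + 1)/(CK + 1)) was computed for genes averaging 1 RPKM or more and called at 2-fold. Intervals used the rounded estimated counts. Genes of like abundance and length were those sharing 1 of 10 abundance bins and, inside it, 1 of 10 length bins. Role classes were read from product names; 8 genes were reassigned by their KEGG number after the files were seen (ubiquitin-protein ligases E3 A, B and C to HECT, peptidyl-prolyl isomerase-like 2 to U-box, de-etiolated-1 to receptors, BIRC6 to E2). TMM factors came from edgeR 4.0.16 in R 4.3.3; the rest used Python 3.11.15, pandas 2.3.3 and scipy 1.17.1. The calculations were tested on simulated data. The named genes were those 2-fold apart, the 2 highest and 2 lowest per class averaging 2 RPKM or more, and the 10 most abundant members; the other genes named were added after their values were seen. Members and lists were chosen with earlier results of these data known.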

Additional observations from a re-analysis of the deposited data

How the results depend on the processing

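No paired analysis was possible because each group has 1 library, and for the same reason no library could be left out. The count of members at least 2-fold higher was 8 and that of lower ones 10. With a pseudocount of 5 RPKM they were 3 and 2, among genes averaging 5 RPKM or more 1 and 3, and among genes of 100 or more reads per library, a setting chosen after seeing the data, 0 and 4. With a minimum of 10 reads per library the count of higher members was 0, as such a filter removes genes with few or no CK reads. Less genes of like abundance and length the counts were 11 higher and 3 lower, so the balance turned. The medians shift by construction with the scaling. With the median of all kept genes, -0.16, set to 0, the median log2 ratios of members, E1, E2 and E3 were 0.0575, -0.24, 0.51 and -0.0572. With TMM scaling they were 0.12, -0.18, 0.59 and 0.0048, so the sign for all members and for E3 depends on the scaling, while that of E1 and E2 does not. Less genes of like abundance and length they were 0.0091, -0.15, 0.16 and -0.0233. With a pseudocount of 5 RPKM the E1 median was -0.27. The ratios of summed RPKM for members, E1, E2 and E3 were 1.32, 0.90, 1.46 and 1.12 with TMM scaling and 1.24, 0.85, 1.38 and 1.05 with the median set to 0. Without the most abundant gene of each they were 1.10 for members, 1.21 for E2 and 0.87 for E3. The other 42 values stayed within 1.5 times the reported count, within 0.1 of the reported median or within the counting interval of the reported ratio. Depth limits the weak genes: the CK library has 2.72 times fewer reads, so its floor of 3 reads on a gene of 1 kilobase is 0.168 RPKM, against 0.0619 RPKM in LP.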
